A study of Mus musculus with 20 samples.

Results

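All 10 libraries from mice labelled susceptible to chronic restraint stress were compared with all 10 control libraries of the bed nucleus of the stria terminalis, with sex as a covariate, to find transcripts that differed in the same direction in females and males. The comparison takes in 20 of the 20 libraries of the series. It joins a female and a male comparison that share no library: 5 susceptible females (labelled FS) against 5 control females (FC), and 5 susceptible males (MS) against 5 control males (MC). The stressed mice belonged to a restraint model of anxiety, the controls carry the label control only, and the sources used here give no strain, age, allele, duration of restraint or criterion for susceptibility. The labels do not tie each library to its own animal. The p-values therefore judge differences against the spread between these libraries, and part of that spread may be technical.

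The bed nucleus of the stria terminalis is a small forebrain nucleus, made mostly of GABA neurons, that joins the amygdala to the hypothalamus and brain stem and is known for its part in sustained anxiety. Restraint releases glucocorticoids from the adrenal gland, and these act in the brain through the glucocorticoid receptor (Nr3c1) and the mineralocorticoid receptor (Nr3c2), which bind DNA and switch on genes such as Sgk1, Fkbp5 and Tsc22d3. Corticotropin-releasing hormone (Crh), made in the hypothalamus and also in this nucleus, starts the hormonal cascade.

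Total counts were 14637636 to 17862840 per library. Markers of the nucleus and of GABA neurons, called nucleus markers below, were present in every group. The 17 genes of that list, among them Gad1, Lhx6, Lhx8 and Crh, summed to 1510 to 2710 CPM (counts scaled to library size). None was at 0 in a group. Y-linked genes matched the sex labels in every library. Libraries differed in RNA of neighbouring structures: 7, of which 4 were susceptible, had more than 100 CPM of the choroid plexus gene Ttr and are called high in Ttr below. A further marker, the hypothalamic gene Pmch, was above 1 CPM in 5 libraries, of which 2 were susceptible, called high in Pmch.

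No gene passed the test. In edgeR's quasi-likelihood test of 14884 genes, 0 (0%) had a Benjamini-Hochberg adjusted p under 0.05 and the smallest adjusted p was 0.451, for Sgk1. At an unadjusted p under 0.05 stood 1110 genes (7.46%), where 744 would be expected by chance, 600 of them higher (4.03%) and 510 lower (3.43%) in susceptible mice. DESeq2 called 16 genes from the same counts, 14 higher and 2 lower, and gave no adjusted p for 11254 genes. It adjusted over the remaining genes only, so its adjusted p-values, here and below, are not on one scale with those of edgeR. The limma voom method with quality weights called 0, with 1954 at an unadjusted p under 0.05. All values below are therefore estimates, and "higher" and "lower" describe them without a call. Changes are log2 fold changes, susceptible minus control, ± standard error, and levels are CPM scaled by TMM (trimmed mean of M-values).

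Females and males often differed in direction. Estimates had the same sign in both sexes for 6648 genes (44.7%), of which 3259 (21.9%) were higher and 3389 (22.8%) lower in both. Across genes, which are not independent replicates, the log2 fold changes of the sexes correlated at -0.213 (Spearman -0.187). This value rested on single libraries: it was -0.041 without female control 1, 0.0292 without susceptible female 5, 0.0386 without susceptible male 5 and -0.0484 without the libraries over 100 CPM of Ttr. At an unadjusted p under 0.05 in both sexes stood 70 genes, 40 with the same sign (0.269%) and 30 with opposite signs (0.202%). The number with opposite signs was 123 without female control 5 and 132 without susceptible female 4, and with other single libraries left out it lay between 17 and 47, so the balance of the 2 numbers was not stable. In 0 genes did susceptible and control levels fail to overlap in both sexes in the same direction, while 68 (0.457%) did not overlap in females and 363 (2.44%) in males. The edgeR test of the difference between the sexes also called 0 genes (the lowest adjusted p was 0.587, and 1230 genes had an unadjusted p under 0.05).

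**Figure D1:**
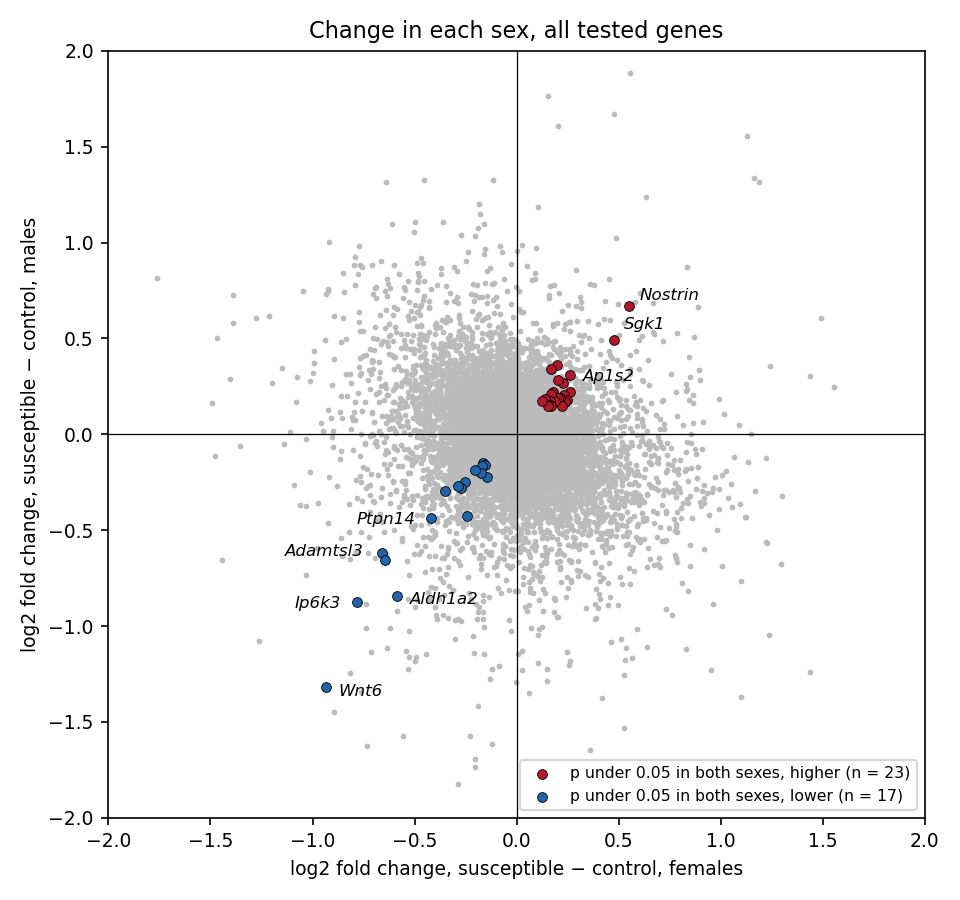
The log2 fold change of every tested gene in females (horizontal) is plotted against that in males (vertical). Red and blue points mark the 23 higher and 17 lower genes at an unadjusted p under 0.05 in both sexes; grey points are all other genes, more of them in the quadrants of opposite sign, and 11 genes lie outside the axes.

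Sgk1 gave the smallest p and nearly the same estimate in each sex. It encodes serum- and glucocorticoid-regulated kinase, which controls ion channels and transporters and is a standard target of the glucocorticoid and mineralocorticoid receptors. In females it stood at 106, 101, 77.7, 99.9 and 92.9 CPM in controls and at 147, 117, 158, 125 and 119 CPM in susceptible mice. In males it stood at 125, 106, 142, 164 and 120 CPM in controls and at 148, 166, 192, 181 and 237 CPM in susceptible mice. Females did not overlap, whereas in males the 164 CPM of control 4 lay above the 148 CPM of susceptible 1. The shared log2 fold change was 0.49 ± 0.09 (adjusted p = 0.451), with 0.48 ± 0.13 in females and 0.49 ± 0.13 in males. The female change minus the male change was -0.02, with a 95% interval from -0.38 to 0.35. Over 33 alternative analyses the estimate stayed between 0.327 and 0.533, and Sgk1 had the smallest p in 28 of them and rank 32 at worst. The estimate of 0.327 and rank 32 were both those without the libraries high in Ttr (edgeR adjusted p = 0.97). DESeq2 called it (0.49 ± 0.10, adjusted p = 0.00118).

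Sgk1 lies on chromosome 10, 21882184 to 21999903 on GRCm38, and RefSeq (GRCm38.p6) gives it 6 start sites. For each site a window of 300 bases was read, 250 before and 50 after the start. The fifth window is shown because it holds the complete palindromic element to which the glucocorticoid receptor binds, made of the hexamer AGAACA and its reverse complement, here in capitals. It lies on the plus strand at chr10:21993640-21993939, inside the annotated gene, with the element at 21993701 to 21993715, 189 bases before that start site:
Sgk1 start 5: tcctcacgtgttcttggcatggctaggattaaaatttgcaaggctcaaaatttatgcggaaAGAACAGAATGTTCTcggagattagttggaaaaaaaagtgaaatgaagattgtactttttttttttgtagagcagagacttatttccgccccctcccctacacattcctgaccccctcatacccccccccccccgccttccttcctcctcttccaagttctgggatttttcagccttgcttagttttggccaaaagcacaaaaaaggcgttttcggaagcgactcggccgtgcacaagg
The element, searched on both strands, matched 1 of 14862 such windows (0.00673%) from 11600 tested genes, which is this one. The hexamer alone, AGAACA on either strand and including those in the palindrome, matched 1881 windows (12.7%). It matched 7 of 27 windows (25.9%) of genes higher at an unadjusted p under 0.05 in both sexes and 1 of 18 (5.56%) of those lower, and the 7 include 3 windows of Sgk1. The windows of Nostrin, Cept1, Inpp5f, Nxt2, Ccnc and Dnajb4 also held the hexamer, as did those of Tsc22d3, Ube2d3, Dnajb1 and Ndufv2. So did windows of Emilin1, Tubgcp6, Sstr3 and Tap1, which were lower in both sexes. No receptor binding was measured.

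Other glucocorticoid-responsive genes had estimates on both sides of 0. Of the 28 genes of that list, 18 were higher and 10 lower (median 0.0546, against -0.00321 over all genes tested, of which 48.7% were higher and 51.3% lower), and 10 were higher and 5 lower in both sexes. The median of the list turned to -0.00596 without susceptible male 5 and to -0.0257 without the libraries high in Pmch, and 13 to 23 members were higher with single libraries left out. Of the 28, 4 stood higher at an unadjusted p under 0.05 and 0 lower, beside 4.03% and 3.43% of all genes. Beside Sgk1 they were Tsc22d3, which encodes the anti-inflammatory protein GILZ (0.32 ± 0.14), Errfi1, an inhibitor of the EGF receptor (0.15 ± 0.07), and the metallothionein gene Mt2 (0.35 ± 0.17). Tsc22d3 was lowest at 62.5, median 75.9 and highest at 119 CPM in the 10 controls and 54.8, 95.9 and 154 CPM in the 10 susceptible libraries, which overlapped widely. Hif3a (0.50 ± 0.26) and the kinase gene Map3k6 (0.60 ± 0.30) had estimates as large as that of Sgk1, with wider errors, and were named after their values were seen. Fkbp5, a co-chaperone that dampens the glucocorticoid receptor, was -0.08 ± 0.19, with 132 CPM in male control 5 against 28.1 to 68.0 CPM in the other libraries, and without that library its sign turned, to 0.14. The clock gene Per1 was 0.01 ± 0.14, made of 0.32 ± 0.18 in females and -0.30 ± 0.18 in males. Its sign turned to negative in 12 of 33 alternatives.

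The receptors themselves showed estimates near 0. Nr3c1 was -0.04 ± 0.06 and Nr3c2 0.07 ± 0.14, and they turned sign in 3 and 2 of 33 alternatives. Of the 14 receptors and co-chaperones, 7 were higher and 7 lower (median 0.0123). Ptges3, the p23 co-chaperone that stabilises steroid receptors with Hsp90, was higher (0.22 ± 0.07, adjusted p = 0.593).

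Among the nucleus markers, which include genes of GABA neurons, estimates leaned higher in both sexes. Of the 17 markers, 14 were higher and 3 lower (median 0.234), beside 48.7% and 51.3% of all genes tested. Higher in both sexes were 10, beside 21.9% of all genes, and the list had medians of 0.273 in females and 0.277 in males. Lower in both sexes were 2, and 5 had opposite signs. At an unadjusted p under 0.05 stood 1 of the 17, higher, beside 4.03% of all genes higher. Crh was the member with the smallest p (0.48 ± 0.20, adjusted p = 0.608): its lowest, median and highest levels were 4.43, 5.96 and 9.53 CPM in controls and 3.92, 10 and 13.8 CPM in susceptible mice. The neuropeptide gene Nts, neurotensin, was 0.53 ± 0.27, with 7.44, 23.7 and 36.1 CPM in controls and 10.7, 33.2 and 51.1 CPM in susceptible mice. For Nts the groups overlapped in both sexes. For Crh females overlapped (0.29 ± 0.28), whereas male controls at 4.98 to 9.29 CPM lay just under susceptible males at 9.32 to 13.8 CPM (0.67 ± 0.28). The transcription factor genes Lhx6 (0.35 ± 0.26), Lhx8 (0.51 ± 0.35) and Nkx2-1 (0.34 ± 0.25), which specify ventral forebrain neurons, were higher in both sexes, with errors of 0.25 to 0.35. The Crh receptor gene Crhr1 was -0.09 ± 0.09. Of 24 genes of GABA signalling 20 were higher (median 0.0611), 11 of them in both sexes. The median of the nucleus markers was 0.108 without the libraries high in Pmch and 0.154 without those high in Ttr.

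**Figure D2:**
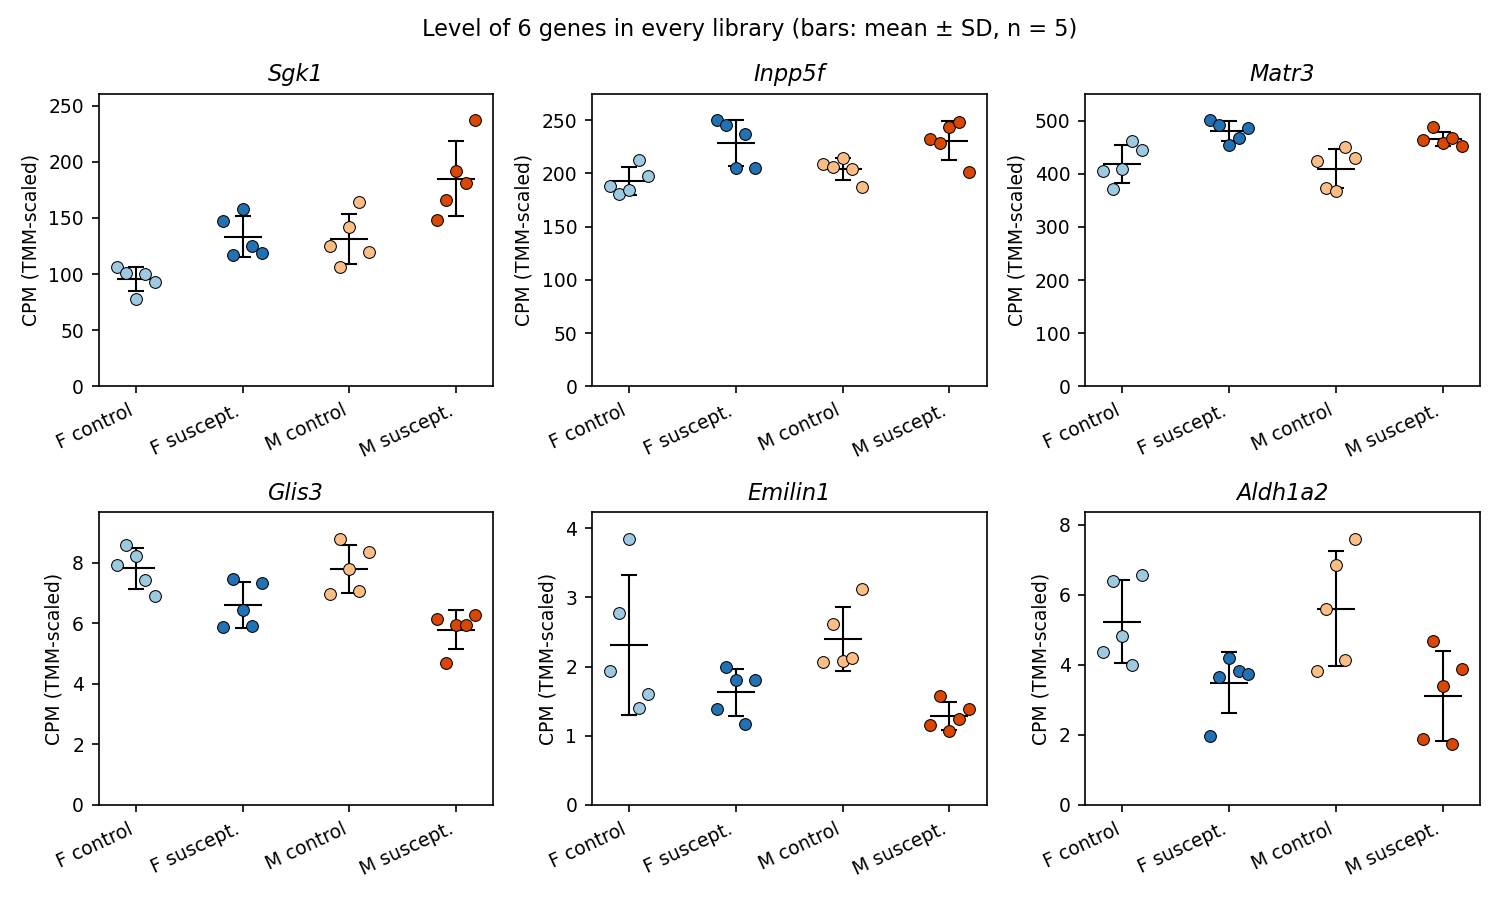
CPM in every library (points) for 6 genes by group, with mean ± SD of 5 libraries; F is female, M male. Sgk1, Inpp5f and Matr3 sit higher and Glis3, Emilin1 and Aldh1a2 lower in the susceptible groups of both sexes, and in each gene the groups overlap in at least 1 sex.

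The genes higher in both sexes with the next smallest p-values had varied roles. Inpp5f, an inositol phosphatase of endosomes (chromosome 7, 128611328 to 128696425), stood at 188, 181, 184, 213 and 198 CPM in female controls and 250, 245, 205, 237 and 205 CPM in susceptible females. Male controls stood at 209, 206, 214, 204 and 187 CPM and susceptible males at 232, 229, 244, 248 and 201 CPM. Both sexes overlapped, by 2 susceptible females and by 1 susceptible male that lay under the highest control. The shared log2 fold change was 0.21 ± 0.05 (adjusted p = 0.593).

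Matr3, a nuclear matrix protein that binds RNA, stood at 406, 371, 409, 461 and 444 CPM in female controls and 501, 492, 455, 468 and 486 CPM in susceptible females. In males it stood at 425, 373, 368, 450 and 430 CPM in controls and 464, 488, 458, 467 and 453 CPM in susceptible mice. Males did not overlap, with 450 CPM in the highest control and 453 CPM in the lowest susceptible mouse, and in females 1 control lay above 1 susceptible mouse. Its shared log2 fold change was 0.19 ± 0.05. Cept1, which makes phosphatidylcholine and phosphatidylethanolamine (0.26 ± 0.06), Ebag9, which slows vesicle secretion (0.25 ± 0.06), and Ugcg, glucosylceramide synthase (0.16 ± 0.04), were also higher in both sexes. So were the messenger RNA export gene Nxt2 (0.28 ± 0.07), Ccnc, cyclin C of the Mediator complex (0.23 ± 0.06), Gsdme, gasdermin E (0.21 ± 0.05), Itfg1 (0.16 ± 0.04) and the co-chaperone gene Dnajb4 (0.20 ± 0.05). Each of them had an edgeR adjusted p of 0.593. DESeq2 called Inpp5f and Matr3 (both at an adjusted p of 0.0227), Itfg1 (0.0286), Ugcg and Dnajb4 (both 0.0472). Cept1, Ebag9, Nxt2, Ccnc and Gsdme were not called, and may be among the 11254 genes to which DESeq2 gave no adjusted p.

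Genes lower in both sexes were led by Glis3, a zinc finger transcription factor (chromosome 19, 28258851 to 28680077). It stood at 7.94, 8.59, 8.22, 7.44 and 6.89 CPM in female controls and 5.87, 7.46, 6.44, 5.90 and 7.35 CPM in susceptible females. Male controls held 6.96, 8.80, 7.79, 7.06 and 8.36 CPM and susceptible males 6.15, 4.68, 5.94, 5.93 and 6.26 CPM. Males did not overlap and females did. Its shared log2 fold change was -0.34 ± 0.08 (adjusted p = 0.593), -0.24 ± 0.11 in females and -0.43 ± 0.11 in males.

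Emilin1 and Aldh1a2 had larger estimates at low levels. Emilin1, a glycoprotein of elastic fibres (chromosome 5, 30913402 to 30921277), stood at 1.93, 2.77, 3.85, 1.40 and 1.60 CPM in female controls and 1.39, 1.99, 1.80, 1.17 and 1.80 CPM in susceptible females. In males it stood at 2.07, 2.61, 2.08, 2.12 and 3.12 CPM in controls and 1.15, 1.58, 1.07, 1.24 and 1.38 CPM in susceptible mice. Only the males did not overlap, and the shared log2 fold change was -0.70 ± 0.18. Aldh1a2, an enzyme that makes retinoic acid and that meningeal fibroblasts express strongly (chromosome 9, 71215789 to 71296243), stood at 4.36, 6.4, 4.84, 4 and 6.58 CPM in female controls and 1.98, 3.67, 4.21, 3.84 and 3.75 CPM in susceptible females. Male controls had 3.84, 5.59, 6.85, 4.13 and 7.61 CPM and susceptible males 1.89, 4.68, 3.41, 1.73 and 3.89 CPM. Both sexes overlapped, and the shared log2 fold change was -0.71 ± 0.19 (adjusted p = 0.593).

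The other lower genes picked by the naming rule had adjusted p-values of 0.593 as well. They included Evc, a ciliary protein of hedgehog signalling (-0.28 ± 0.07), Mical1, which oxidises actin (-0.32 ± 0.08), Ptpn14, a tyrosine phosphatase (-0.43 ± 0.12), and Fat4, an atypical cadherin (-0.41 ± 0.11). The endosomal gene Wdr81 (-0.20 ± 0.05), the RNA helicase gene Ddx54 (-0.18 ± 0.05), Zbtb49 (-0.25 ± 0.07), the chondroitin synthesis gene Chpf2 (-0.20 ± 0.06) and Pcnx3 (-0.17 ± 0.04) completed them. DESeq2 called Pcnx3 only (adjusted p = 0.0286), and others may be among the genes to which it gave no adjusted p. The male estimate of Pcnx3, -0.26 ± 0.05, exceeded its female estimate of -0.09 ± 0.05. The female minus male difference of Pcnx3 was 0.17 (95% interval 0.02 to 0.32), in a test that called 0 genes after adjustment.

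The 40 genes at an unadjusted p under 0.05 in both sexes with the same sign were chosen on these values, so their values are a description. The 23 higher ones ran from Nostrin (0.61 ± 0.18), which guides nitric oxide synthase in endothelium, and Sgk1 down to Ppp1cb, a protein phosphatase subunit (0.15 ± 0.04), and Cul3, a ubiquitin ligase scaffold (0.15 ± 0.04). They also held the adaptor protein gene Ap1s2 (0.29 ± 0.08), the ubiquitin ligase gene Rnf138 (0.24 ± 0.07), the ubiquitin hydrolase gene Uchl3 (0.20 ± 0.06) and Cd47, a surface protein that holds off phagocytes (0.19 ± 0.05). Nostrin spread from 2.12 to 5.05 CPM in controls and from 2.86 to 8.63 CPM in susceptible mice, and so overlapped. The 17 lower ones ran from the signalling gene Wnt6 (-1.13 ± 0.31), Ip6k3, an inositol phosphate kinase (-0.83 ± 0.24), and Aldh1a2 to Vegfa, the vascular growth factor (-0.16 ± 0.05). Wnt6 lay between 0.488 and 1.75 CPM in controls and between 0.120 and 0.822 CPM in susceptible mice, and the groups overlapped.

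How many genes met this rule depended on single libraries. The number was 15, 26 and 75 without female control 2, 3 and 4, 86 without susceptible female 5, and 26, 20 and 64 without male control 2, 3 and 4. It was 15 without the libraries high in Ttr, 3 without those high in Pmch, 25 with each sex fitted alone and 14 once the trend on GC content was removed. All 40 genes kept their sign without the libraries high in Ttr, without those high in Pmch and with the trend removed, and 33 of 40 were at an unadjusted p under 0.05 with it removed. These alternatives use the libraries on which the genes were chosen.

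Markers of the meninges, the membranes that wrap the brain, and of their fibroblasts leaned one way in both sexes. All 19 were lower in susceptible mice (median -0.351), 16 of them in both sexes and 0 higher in both, with medians of -0.335 in females and -0.367 in males. Of all genes tested, 51.3% were lower and 22.8% lower in both sexes. At an unadjusted p under 0.05 stood 7 of the 19, all lower, beside 3.43% of all genes lower, and none passed after adjustment. The 7 were the organic anion transporter gene Slc22a6 (-0.78 ± 0.24), the GABA transporter gene Slc6a13 (-0.58 ± 0.19), the prostaglandin D synthase gene Ptgds (-0.52 ± 0.18), the collagen genes Col3a1 (-0.44 ± 0.18), Col1a1 (-0.34 ± 0.15) and Col1a2 (-0.32 ± 0.10), and Aebp1 (-0.40 ± 0.15), a collagen-binding protein. The exceptions to the same sign in both sexes were Nupr1, 0.09 in females and -0.73 in males, and the matrix genes Dcn and Lum, which were lower in females (-0.26 and -0.25) and higher in males (0.12 and 0.18).

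Levels showed how far these libraries overlapped. Slc22a6 stood at 1.87, 3.75, 5.84, 2.61 and 4.25 CPM in female controls and 1.58, 3.36, 2.47, 3.34 and 2.67 CPM in susceptible females. Male controls stood at 1.65, 4.31, 5.17, 2.75 and 4.24 CPM and susceptible males at 1.15, 2.24, 2.09, 1.17 and 1.51 CPM. Only 1 male control, at 1.65 CPM, lay within the range of the susceptible males. The summed CPM of all 19 markers had a lowest, median and highest value of 362, 455 and 602 in female controls against 289, 370 and 423 in susceptible females, and of 320, 415 and 836 in male controls against 209, 329 and 451 in susceptible males. Ptgds made up 53.1% to 77.4% of this sum. The other 18 markers, summed after these values were seen, stood at 116, 147 and 252 CPM in female controls against 113, 128 and 198 CPM in susceptible females, and at 106, 144 and 189 CPM in male controls against 72.8, 113 and 169 CPM in susceptible males. The groups overlapped in both sums. No member was at 0 in a group. The median of the list stayed between -0.443 and -0.297 over 33 alternatives: it was -0.363 without the libraries high in Ttr, -0.324 without those high in Pmch and -0.301, with 0 members higher and 6 at an unadjusted p under 0.05, once the trend on GC content was removed. In whole tissue, fewer meningeal cells in a dissection and less RNA per cell cannot be told apart, and the part of dissection was not tested.

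**Figure D3:**
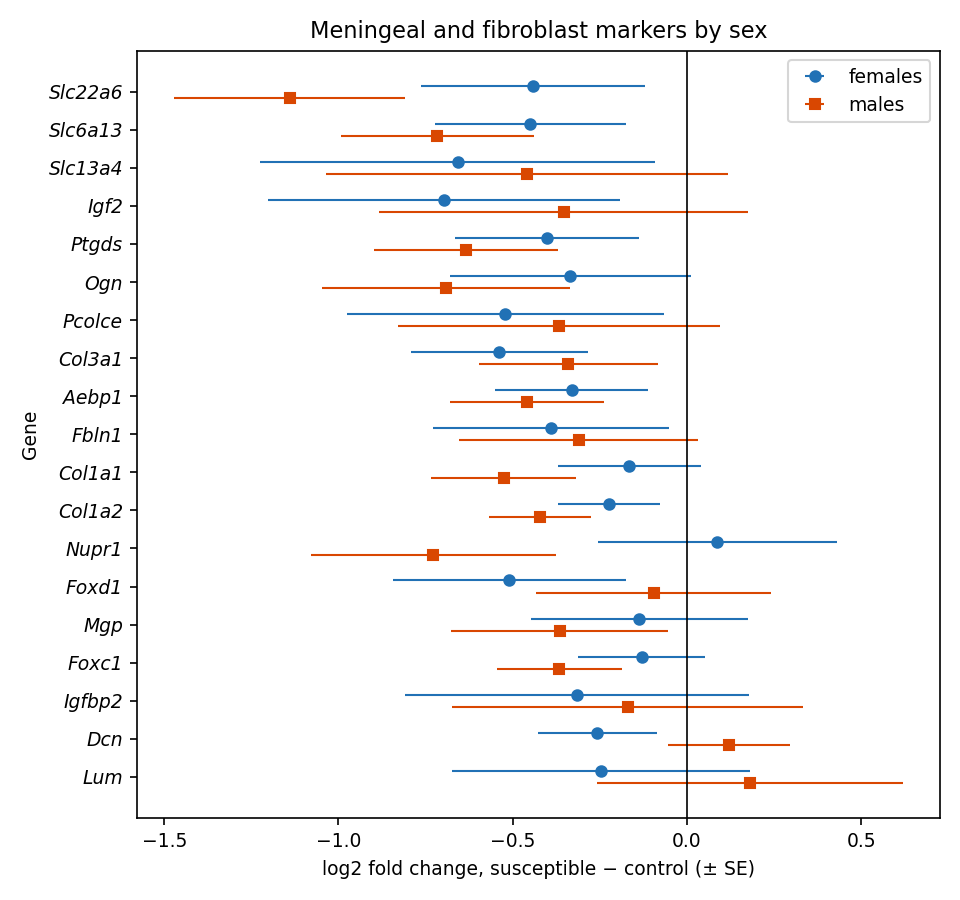
The log2 fold change ± SE of each of the 19 meningeal and fibroblast markers in females (circles) and males (squares), ordered by the shared estimate. The points of Nupr1 in females and of Dcn and Lum in males lie right of 0, and the other points left of it.

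Other vascular and blood markers were less even. Over all genes tested, 51.3% were lower, and 22.8% were lower in both sexes. Of 25 genes of endothelium and pericytes 17 were lower and 8 higher (median -0.0808), with medians of 0.0672 in females and -0.259 in males. Pdgfrb, the receptor of pericytes (-0.41 ± 0.11), and Cldn5, a tight junction protein of brain endothelium (-0.37 ± 0.11), were lower in both sexes, while the glucose transporter gene Slc2a1 was higher (0.15 ± 0.06). The 5 red cell genes tested were lower in both sexes (median -0.156), with errors of 0.32 to 0.41 that exceeded most of their estimates. Microglial markers had a median of 0.0114. Among astrocyte markers 17 of 21 were lower (median -0.054), 5 of them in both sexes, beside 22.8% of all genes. The other 16 of the 21 had opposite signs in the sexes (medians -0.154 in females and 0.0382 in males). With the GC trend removed the median of the 21 was -0.0162. Gfap, the filament protein of reactive astrocytes, had the smallest p among them (-0.44 ± 0.13, adjusted p = 0.593). Gfap had a lowest, median and highest level of 110, 144 and 229 CPM in controls and 89.0, 108 and 150 CPM in susceptible mice.

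Ubiquitin-conjugating E2 enzymes, which pass ubiquitin to proteins marked for degradation or signalling, leaned higher. Of 30 such genes 22 were higher (median 0.0691), 17 in both sexes and 2 lower in both, and 10 were higher at an unadjusted p under 0.05, beside 4.03% of all genes. Ube2d1 (0.16 ± 0.04), Ube2d3 (0.14 ± 0.04), Ube2a (0.23 ± 0.07), Ube2b (0.19 ± 0.07) and Ube2r2 (0.16 ± 0.06) were among them, and 0 E2 genes were lower at that level. Ube2d3 had a lowest, median and highest level of 244, 284 and 310 CPM in controls and 301, 306 and 318 CPM in susceptible mice, and was called by DESeq2 (adjusted p = 0.0448). The E2 transcripts had a median GC content of 45.2%, beside 49.9% for all genes tested. With the GC trend removed 26 of the 30 were higher (median 0.0505) and 4 stood at an unadjusted p under 0.05.

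Chaperones and respiratory genes leaned the same way by small amounts. Of 27 heat shock and unfolded protein response genes 25 were higher (median 0.107), 13 in both sexes. Their medians were 0.0237 in females and 0.155 in males. The smallest p-values were those of the endoplasmic reticulum chaperone gene Dnajb9 (0.14 ± 0.06) and Dnajb1, a partner of Hsp70 (0.22 ± 0.10). Without the libraries high in Ttr the median of the 27 was 0.00463. Of 40 nuclear genes of oxidative phosphorylation 35 were higher (median 0.0428), 23 in both sexes. Over all genes tested, 48.7% were higher and 21.9% higher in both sexes. At an unadjusted p under 0.05 stood 3 of the 40, all higher, beside 4.03% of all genes higher and 7.46% in either direction. The 3 were the complex I genes Ndufaf2 (0.24 ± 0.08), Ndufv2 (0.14 ± 0.05) and Ndufs1 (0.07 ± 0.03). Ndufaf2 was 0.45 ± 0.10 in males and 0.03 ± 0.10 in females, with a female minus male difference of -0.42 (95% interval -0.69 to -0.14) that had an adjusted p of 0.587. Without the libraries high in Ttr the median of the 40 nuclear genes was -0.0104. Of the 13 mitochondrially encoded genes 12 were higher (median 0.239, 0.399 in females and 0.0449 in males). At an unadjusted p under 0.05 stood 5 of them, beside 4.03% of all genes higher. With the GC trend removed the median of those 13 was 0.0835 and 0 stood at that level, and it turned to -0.0276 when voom was combined with that removal.

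In several lists most members had opposite signs in the sexes, as did most genes tested, of which 44.7% had the same sign. Striatal markers were all 27 higher in the shared fit (median 0.206), but 25 had opposite signs in the sexes (medians 0.781 in females and -0.287 in males). Immediate early genes had opposite signs in 29 of 32 members (medians 0.383 and -0.305), myelin genes in 25 of 27 (-0.311 and 0.29), clock genes in 17 of 21 (0.0989 and -0.266) and hypothalamic peptides in 7 of 8 (-0.926 and 0.632). The activity marker Fos was 0.06 ± 0.17 and the enkephalin gene Penk 0.32 ± 0.34, each higher in females and lower in males. The shared medians of the immediate early (0.0358), myelin (-0.0168) and clock (-0.0103) lists lay near 0, while that of the hypothalamic peptides was -0.311 and turned to 0.0915 without male control 1. In the meningeal, E2 and nucleus lists, by contrast, the medians of both sexes had the same sign. This was not particular to them. It also held in other lists, among them nuclear oxidative phosphorylation (0.0363 in females and 0.0479 in males), GABA signalling (0.0265 and 0.119) and red cells (-0.0869 and -0.245).

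**Figure D4:**
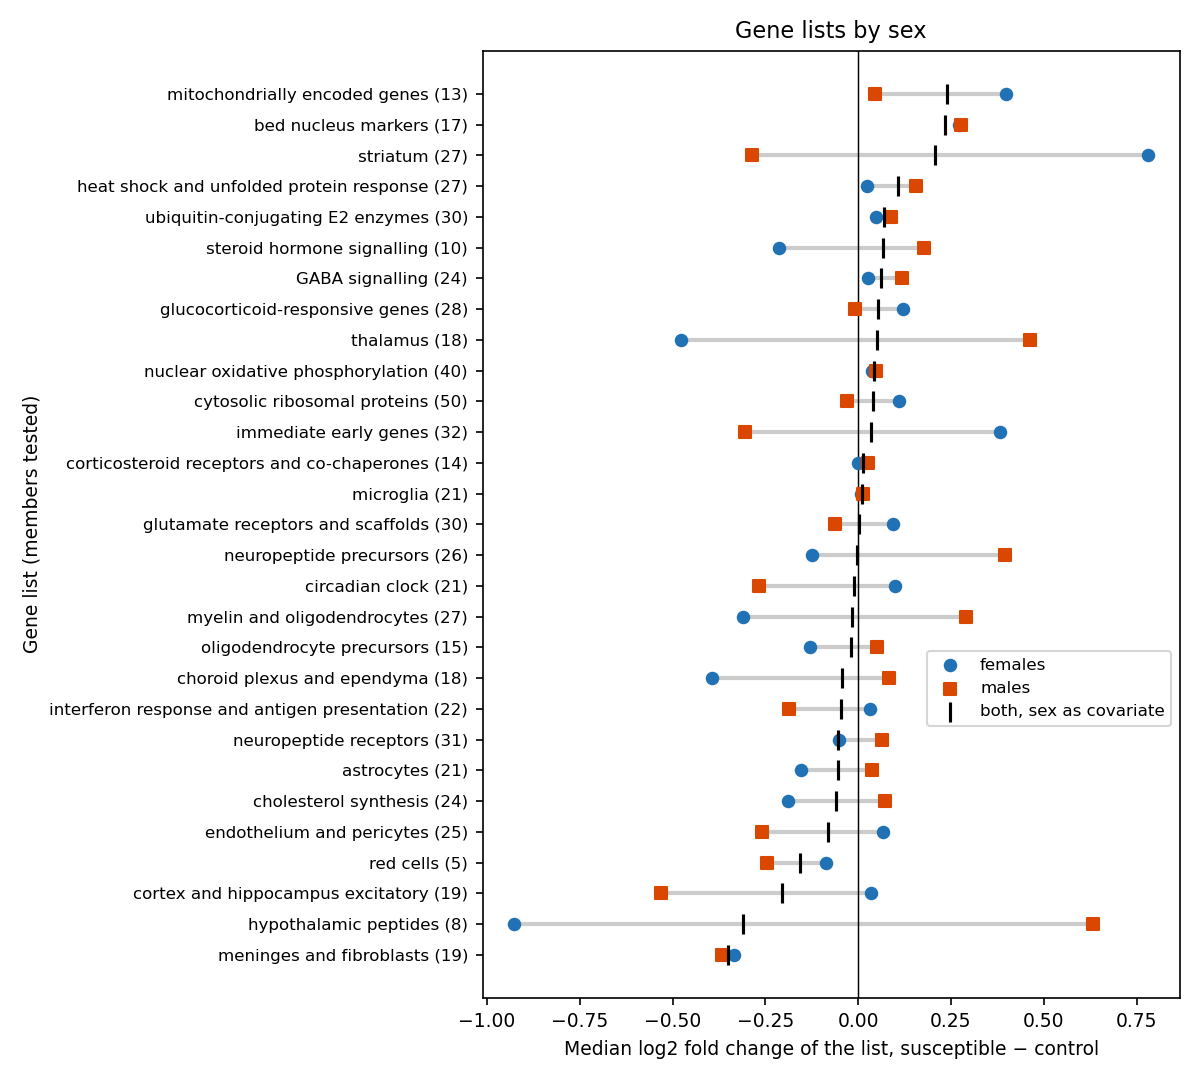
Median log2 fold change of each gene list in females (circles), males (squares) and both with sex as covariate (bars); the number of members tested is in brackets. Meningeal and nucleus markers have nearly equal medians in both sexes, whereas striatal, thalamic, myelin, early and peptide lists fall on opposite sides of 0.

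The base composition of transcripts moved with the comparison. Genes higher at an unadjusted p under 0.05 had a median transcript GC content of 42.3% and lower ones 55.4%, beside 49.9% for all. Of the 40 genes at that level in both sexes, all 23 higher ones lay below that median and 16 of 17 lower ones above it. In the tenth of genes with the lowest GC content the median log2 fold change was 0.082, with 232 genes higher and 7 lower at that level. In the tenth with the highest it was -0.0685, with 4 higher and 134 lower. Across 14872 genes, which share the same libraries, log2 fold change and GC content correlated at -0.308 (-0.116 in females, -0.269 in males).

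A slope of log2 CPM on GC content, taken in each library relative to the mean library and chosen after the data were seen, measured this per library. It ranged from -0.0351 to 0.129 log2 CPM per 10 points of GC in controls and from -0.0935 to 0.0324 in susceptible mice. The ranges overlapped, and the mean difference was -0.0745 (exact 2-sided permutation p = 0.0035 within sex; adjusted p = 0.0245 over 7 library quantities), with -0.0455 in females and -0.103 in males. Leaving out single libraries kept it between -0.0818 and -0.0637. The slope restates, in the same libraries, the GC pattern above, so its p is not a separate test of that pattern. The adjustment does not correct for this choice. With a smooth trend on GC content and length removed per library, 558 genes stood at an unadjusted p under 0.05 and 0 passed after adjustment. Sgk1 was then 0.50, Inpp5f 0.22 and Aldh1a2 -0.71, all near their estimates above. Glis3 was -0.28, Matr3 0.15, Ebag9 0.15, Ddx54 -0.08 and Wdr81 -0.09, all nearer 0 than above. The other 6 library quantities, among them the mitochondrial share of counts (difference 0.621 percentage points, p = 0.0837) and log2 CPM of Ttr (0.459, p = 0.736), had adjusted p-values of 0.262 or more by the same exact permutation test. What sets the slope of a library, and its part in the results above, was not tested.

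**Figure D5:**
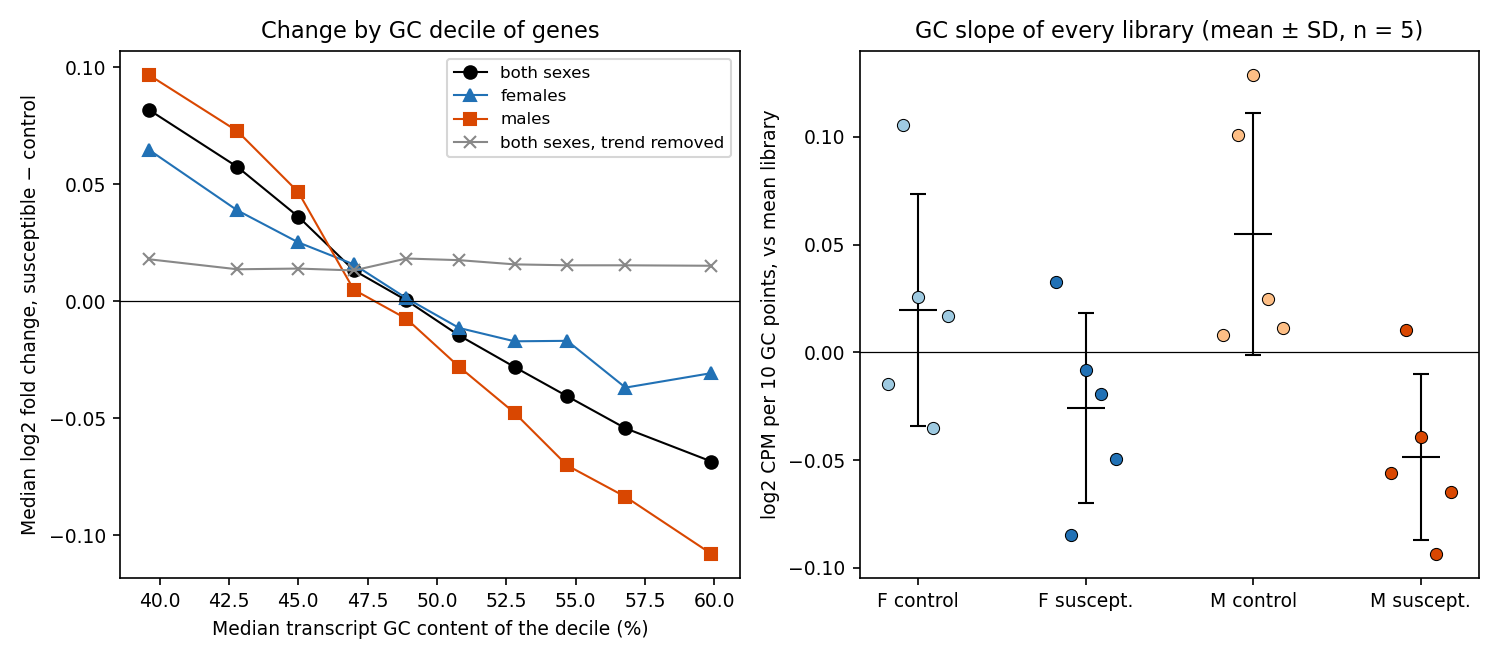
Left, the median log2 fold change of genes in 10 classes of transcript GC content, for both sexes, each sex, and both after removal of the trend; right, the GC slope of every library (points) with mean ± SD of 5. The lines of both sexes run from above 0 at low to below 0 at high GC content, and susceptible libraries have lower slopes than controls with overlap.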

How the data were processed

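Polyadenylated RNA was extracted with Trizol and sequenced in 20 libraries, per the labels' protocols. For every library the authors deposited whole-number counts per gene without normalization. HISAT2, featureCounts and mm10 are named in the submitters' processing notes. The sources used here give no versions, annotation or strand setting, so overlapping, antisense and near-identical genes cannot be separated. Groups and replicate numbers came from the titles. Of 19214 genes listed, 19206 matched GENCODE on GRCm38 by identifier, and the 8 others held 0.0026% of counts.

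Counts were scaled by TMM, filtered with filterByExpr (14884 genes) and fitted with sex and stress in edgeR 4.0.16 (R 4.3.3, robust quasi-likelihood). Values for each sex and their difference came from a fit with 1 mean per group. P-values were adjusted by Benjamini and Hochberg over all genes (threshold 0.05). The exception is DESeq2, which adjusted only over the genes left after 11254 were set aside. A standard error is the log2 fold change, unsigned, divided by the square root of F. Alternatives used DESeq2 1.42.0, limma 3.58.1, sva 3.50.0, other scaling and filters, a replicate block, a region score, removal of a GC and length trend (mgcv 1.9.3), and omitted libraries; the trend in the sexes, voom with the trend, and the GC slope were added after the data were seen. The code was checked on simulated counts. Library quantities were tested by exact permutation within sex (63504 arrangements). No 2 libraries of a group agreed within sampling noise (chi-square).

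Members and gene lists were chosen with earlier results of these data known. The naming rule took the 12 smallest p-values in each direction among genes of at least 1 CPM with the same sign in both sexes, each beyond its standard error, without predicted models. It also took 11 stress and peptide genes whatever their result, and up to 2 members per list at an unadjusted p under 0.05. Some genes that the rule picked are not reported here, and no others took their place. Other genes named were picked after their values were seen.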

Additional observations from a re-analysis of the deposited data

Results flagged for a closer look

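Of 256 groups of 5 libraries, 18 held a library whose gap to its nearest neighbour exceeded 0.71 of the group's range, where chance alone gives about 1 in 20. High libraries were, in CPM, Ccnc 40.6 and Ier2 5.07 in susceptible male 5, Fos 52.7 and Per1 188 in female control 5, Agrp 3.68 in female control 1, Sstr3 18.8 in susceptible female 5, Ndufv2 142 in susceptible female 1, Rpl6 269 in susceptible male 2, Dnajb1 114 in susceptible male 1 and Tap1 4.82 in susceptible male 4. Low libraries were Nxt2 31.9 in susceptible female 5, Glis3 4.68 in susceptible male 2, Aldh1a2 1.98 in susceptible female 1, Zbtb49 15.2 in male control 2 and Ndufv2 108 in susceptible male 1. Log2 CPM of Pmch was high in susceptible female 4 (3.08) and susceptible male 5 (4.56), and the latter had a low region score, striatal minus thalamic markers, of -1.03.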

How the results depend on the processing

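In the 33 alternatives 0 genes were called, except with DESeq2 (16). Of 1881 alternative values for the 57 named genes, 1850 kept their direction and side of the threshold, 8 passed with DESeq2 and 23 reversed. A gene without an adjusted p from DESeq2 was counted as not passing, so the 1850 may include genes that DESeq2 did not judge. The reversals were in 5 genes with small estimates, and their cause was not tested. Reversed log2 fold changes were 0.036 (voom), 0.10 (voom with the GC trend removed) and 0.033 (without libraries high in Ttr) for Fkbp5 and -0.053 (without libraries high in Pmch) for Fos. They were 0.015 without libraries high in Pmch and 0.019 without those high in Ttr for Nr3c1, and -0.00112 with the region score for Nr3c2. For Per1 they were -0.018 with 1 surrogate variable, -0.046 with voom, -0.045 with the region score and -0.11 without libraries high in Pmch.

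Leaving out single libraries gave -0.14 to 0.14 for Fkbp5, -0.020 to 0.14 for Fos, -0.065 to 0.00078 for Nr3c1, -0.0014 to 0.13 for Nr3c2 and -0.052 to 0.087 for Per1. It gave 41.6% to 51.4% of genes with the same sign in both sexes, and 15 to 86 genes at an unadjusted p under 0.05 in both with the same sign. That number was 25 with each sex fitted alone, 14 with the trend removed, 3 without libraries high in Pmch and 15 without those high in Ttr. The library differences became 0.498 to 0.767 for the mitochondrial share (percentage points), -1.63 to -0.957 for log2 CPM of Slc17a7 and -0.0919 to 1.12 for that of Ttr.

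The labels reuse replicate numbers but state no pairing, so the numbers were not taken to pair libraries. Of 10 same-number pairs, 5 correlated above 0.1 (range -0.436 to 0.642). Among the 5 susceptible libraries of their sex, 5 of 10 controls correlated best with their own number. These values do not settle whether the numbers pair libraries. With the replicate block 0 genes were called (lowest adjusted p 0.594, 1170 at an unadjusted p under 0.05). Counts of a few reads per library limit genes near 1 CPM.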
